A study of Mus musculus with 10 samples.

Results

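The genes described here are 8 mouse genes that write, maintain or oxidise DNA methylation: *Dnmt1*, *Uhrf1*, *Dnmt3a*, *Dnmt3b*, *Dnmt3l*, *Tet1*, *Tet2* and *Tet3*. They were taken by name from an expression table of 26857 entries and not by a rule on their values, though earlier results of these data were known. The table lists *Tet1* under its older name Cxxc6, *Tet2* as E130014J05Rik and *Tet3* as D230004J03Rik. All 8 were expressed, which here means a mean of at least 1 FPKM (fragments per kilobase, a level scaled to transcript length and to the fragments of the hairpin).

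Expression was measured by poly(A) RNA-seq in V6.5 cells, a mouse embryonic stem (ES) cell line grown in serum and LIF on gelatin. The cells had been infected with a lentiviral short hairpin against luciferase (shLuc) or GFP (shGFP) as controls, or against *Rbfox2* (shFox2-1 or shFox2-2), an RNA-binding protein that regulates splicing. All groups carried a virus, were selected for 3 days in puromycin at 1 µg/ml and were then kept for 24 h without it. Each of the 4 hairpins was sequenced in 2 libraries from separate infections, but the deposited value of a hairpin pools them, so the comparison sets 2 values against 2. In other V6.5 cells a doxycycline-inducible human RBFOX2 from a lentivirus, FLAG-HA-tagged or untagged, was switched on for 24 h with doxycycline at 1 µg/ml after 6 days of selection in hygromycin at 150 µg/ml. RNA crosslinked to it at 150 mJ/cm2 was mapped by iCLIP (crosslinking and immunoprecipitation) in 1 tagged and 1 untagged library, and the deposited clusters are those of the tagged library. DNA methylation itself was not measured.

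Cytosine methylation at CpG sites is copied after replication by DNMT1, which the hemimethylated-DNA reader UHRF1 brings to newly made strands. The de novo enzymes DNMT3A and DNMT3B add methyl groups to unmethylated sites, and DNMT3L, which has no catalytic activity of its own, stimulates them. The dioxygenases TET1, TET2 and TET3 oxidise methylcytosine, which starts its removal. In mouse ES cells TET1 and TET2 are the main TET proteins, and *Dnmt3l* is a gene of ES and germ cells.

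The upstream sequences of *Tet1*, *Tet2* and *Dnmt3b* are shown because these genes had the largest differences between hairpins below. Each is the 250 bases before the first start that RefSeq lists for the gene on GRCm38.p6, 5′ to 3′ on the gene's strand. A GC box (GGGCGG, or CCGCCC on the other strand) is in capitals. These positions are on another build than the loci and clusters below and were not converted to it. A longer transcript model may begin further upstream.

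*Tet1*, chr10:62887325-62887574, minus strand: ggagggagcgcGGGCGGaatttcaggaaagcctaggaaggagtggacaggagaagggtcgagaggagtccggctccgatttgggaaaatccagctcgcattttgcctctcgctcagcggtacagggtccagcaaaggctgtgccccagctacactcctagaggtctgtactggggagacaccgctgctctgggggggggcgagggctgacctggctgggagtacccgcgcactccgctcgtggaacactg

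*Tet2*, chr3:133544391-133544640, minus strand: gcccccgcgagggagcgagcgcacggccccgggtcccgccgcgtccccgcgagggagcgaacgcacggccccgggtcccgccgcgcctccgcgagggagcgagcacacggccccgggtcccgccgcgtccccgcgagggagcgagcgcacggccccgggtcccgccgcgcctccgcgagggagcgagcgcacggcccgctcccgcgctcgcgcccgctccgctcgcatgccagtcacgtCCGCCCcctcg

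*Dnmt3b*, chr2:153649199-153649448, plus strand: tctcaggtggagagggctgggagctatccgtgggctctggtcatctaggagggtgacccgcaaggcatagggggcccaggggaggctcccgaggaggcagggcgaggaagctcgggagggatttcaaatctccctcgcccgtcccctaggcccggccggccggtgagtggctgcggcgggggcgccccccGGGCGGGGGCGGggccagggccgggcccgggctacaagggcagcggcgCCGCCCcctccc

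The *Tet2* window held 51 CpG sites and 83.6% G or C, and 99.9% of 32851 mouse promoter windows of this length held fewer CpG sites. Part of its CpG content lies in a repeat, in which the run cacggccccgggtcccgccgcg occurs 4 times. The *Dnmt3b* window held 21 CpG sites, more than 83.7% of promoters, and the *Tet1* window 15, more than 72.7%. The median window held 6. A GC box was found 3 times in the *Dnmt3b* window and once in each of the *Tet1* and *Tet2* windows, against at least 1 in 32.7% of all windows. The letters CCAAT, searched on both strands, were in none of these 3 windows and in 33.8% of all windows. These matches describe the letters of the windows only.

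The targeted gene was lower with both Rbfox2 hairpins. *Rbfox2*, listed as Rbm9, was at 24.7 FPKM with shLuc and 23.3 with shGFP, against 8.56 with shFox2-1 and 7.21 with shFox2-2. Sequencing depth was unknown, and each value carries a deposited interval whose confidence level no source used here gives. The intervals of the 8 genes were taken as the error of a hairpin's value. A gene counts as separated if neither Rbfox2 hairpin's interval touches a control interval and both lie on the same side of the controls. ES cell markers were present in every hairpin, with 7 of 7 expressed and a summed level of 1263 to 1571 FPKM. Of the fibroblast (feeder) markers 2 of 7 were expressed, with a summed level of 4.26 to 4.85 FPKM and *Lum* at 0. The primitive endoderm list had 1 of 5 expressed, summing to 3.11 to 3.70 FPKM. The neural list had 5 of 5, summing to 42.9 to 52.4 FPKM.

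None of the 8 genes passed the test of knockdown against control, and none was separated. The main test was limma on log2(FPKM + 1) over 20281 genes, and with Benjamini-Hochberg adjustment it called 0 of the 8 and 0% of all genes tested. At an unadjusted p under 0.05 it listed 2 of the 8, *Dnmt3b* and *Dnmt3l*, against 4.48% of all genes. The interval rule separated 0 of 8, where 0.174% of the 12632 expressed genes were separated as higher and 0.119% as lower. By the order of the values alone, 1 gene (*Dnmt3l*) had both knockdown values above both controls and 2 (*Dnmt3b* and *Tet3*) had both below. Over all expressed genes these shares were 14.3% and 17.8%. With hairpins centred on the median gene, *Uhrf1* took the place of *Tet3* among those below. The p-values rest on how far hairpins differ from each other, not cultures, and an exact permutation test of 2 values against 2 cannot go below 0.333.

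The genes differed between the Rbfox2 hairpins. With shFox2-1, *Tet1* and *Tet2* lay above and *Dnmt3a* and *Dnmt3b* below both control intervals. With shFox2-2, *Tet1*, *Tet2* and *Dnmt1* lay below both and none lay above. The intervals of the 2 Rbfox2 hairpins did not overlap each other for 5 of the 8 genes (*Dnmt1*, *Dnmt3a*, *Dnmt3b*, *Tet1* and *Tet2*), where 14.9% of expressed genes behaved so. This reading of each hairpin on its own was chosen after values of these data had been seen.

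**Figure D1:**
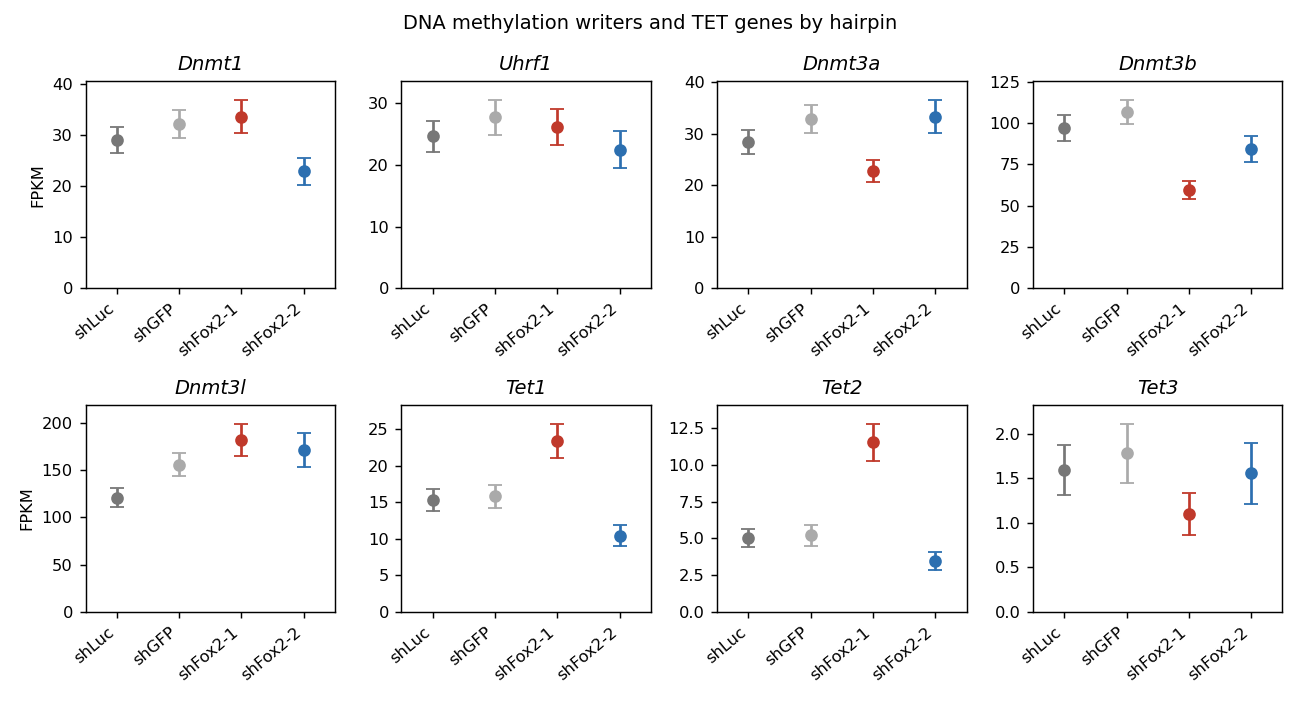
Expression of the 8 genes in FPKM (vertical axes, each from 0 and with its own range) with each of the 4 hairpins. Points are the pooled value of 2 libraries and bars the deposited interval. *Tet1* and *Tet2* are highest with shFox2-1 (23.4 and 11.5 FPKM) and lowest with shFox2-2 (10.4 and 3.45), while *Dnmt3b* is lowest with shFox2-1 (59.7).

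Maintenance was carried by *Dnmt1* (chr9:20711653-20757317, minus strand, build mm9) and *Uhrf1* (chr17:56442840-56462909, plus strand). *Dnmt1* was at 29.0 FPKM (interval 26.4 to 31.6) with shLuc, 32.2 (29.4 to 34.9) with shGFP, 33.6 (30.3 to 36.8) with shFox2-1 and 22.9 (20.2 to 25.5) with shFox2-2. The shFox2-2 value was thus the lowest at 0.747 of the control mean, while the shFox2-1 interval overlapped both controls. Of all expressed genes, 1.98% lay below both control intervals with shFox2-2. The median expressed gene was itself 0.10 lower on the log2 scale with shFox2-2, and after centring on it the *Dnmt1* interval overlapped the controls. Over the arms the log2 fold change of *Dnmt1* was -0.14 (SE 0.20, limma adjusted p = 0.989).

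*Uhrf1*, whose product recruits DNMT1, was at 24.7 FPKM (22.2 to 27.1) with shLuc, 27.7 (24.9 to 30.6) with shGFP, 26.1 (23.2 to 29.0) with shFox2-1 and 22.5 (19.5 to 25.5) with shFox2-2. All 4 intervals overlapped, and it had the narrowest range of the 8 genes, 0.29 on the log2 scale. Its log2 fold change was -0.11 (SE 0.14, limma adjusted p = 0.987). The ratio of *Dnmt1* to *Uhrf1* was 1.18 and 1.16 in the controls, 1.29 with shFox2-1 and 1.02 with shFox2-2.

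*Dnmt3l* and *Dnmt3b* had the highest levels of the 8 genes, and the de novo genes differed in which hairpin stood apart. *Dnmt3b* (chr2:153474426-153513466, plus strand) stood above 95.2% of expressed genes. It was at 96.8 FPKM (89.0 to 104.7) with shLuc, 106.7 (99.3 to 114.0) with shGFP, 59.7 (54.3 to 65.2) with shFox2-1 and 84.3 (76.4 to 92.2) with shFox2-2. Both knockdown values were below both controls, at 0.587 of the control mean with shFox2-1 and 0.828 with shFox2-2, whose interval still overlapped that of shLuc. With shFox2-1, 2.11% of expressed genes lay below both control intervals. The log2 fold change of *Dnmt3b* was -0.51 (SE 0.18, limma adjusted p = 0.978).

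*Dnmt3a* (chr12:3835027-3914443, plus strand) was at 28.4 FPKM (26.1 to 30.7) with shLuc, 32.9 (30.2 to 35.6) with shGFP, 22.8 (20.6 to 24.9) with shFox2-1 and 33.4 (30.1 to 36.6) with shFox2-2. Only the shFox2-1 value lay apart, at 0.743 of the control mean, and the shFox2-2 value was the highest of the 4. The log2 fold change over the arms was -0.14 (SE 0.20, limma adjusted p = 0.988). The ratio of *Dnmt3b* to *Dnmt3a* was 3.41 and 3.24 in the controls, 2.62 with shFox2-1 and 2.53 with shFox2-2.

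*Dnmt3l* (chr10:77492776-77526360, plus strand), the cofactor gene, had the highest level of the 8 and stood above 97.8% of expressed genes. It was at 120.8 FPKM (110.4 to 131.2) with shLuc, 155.8 (143.8 to 167.7) with shGFP, 181.9 (164.8 to 199.1) with shFox2-1 and 171 (153.6 to 189) with shFox2-2. Both knockdown values exceeded both controls, but their intervals overlapped that of shGFP, and the table marks the shFox2-1 value as low data. The control hairpins differed too. *Dnmt3l* was the only one of the 8 whose control intervals did not overlap, which held for 1.19% of expressed genes. Its log2 fold change was 0.36 (SE 0.14, limma adjusted p = 0.978). The ratio of *Dnmt3l* to the sum of *Dnmt3a* and *Dnmt3b* was 0.965 with shLuc, 1.12 with shGFP, 2.21 with shFox2-1 and 1.45 with shFox2-2. That it was higher with both Rbfox2 hairpins than with either control follows from its parts and is no separate result. With each of these hairpins *Dnmt3l* was above, and the sum below, both controls.

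A *Dnmt3b* relative was separated. *Dnmt3b-ps1*, which the table lists as LOC668932 and RefSeq as a pseudogene with the synonym Dnmt3c, was at 17.1 FPKM (14.9 to 19.2) with shLuc, 18.4 (15.9 to 21.0) with shGFP, 10.01 (8.37 to 11.7) with shFox2-1 and 11.9 (9.78 to 14.1) with shFox2-2. Both knockdown intervals lay below both controls. The log2 fold change was -0.65 (SE 0.14, limma adjusted p = 0.978). Reads of related *Dnmt3b* sequence may be divided between the genes, and how the authors treated such reads is not given in the sources used here, so this value and that of *Dnmt3b* are uncertain. The *Dnmt3b* locus also overlaps the entry 7530422B04Rik at 0 to 0.410 FPKM, and that of *Dnmt3l* overlaps *Aire* at 0.765 to 1.46 FPKM. Whether counting used strand is not given in the sources used here.

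*Tet1* and *Tet2* lay above the controls with one Rbfox2 hairpin and below them with the other. *Tet1* (chr10:62274443-62342762, minus strand) was at 15.3 FPKM (13.8 to 16.8) with shLuc, 15.8 (14.3 to 17.4) with shGFP, 23.4 (21.0 to 25.7) with shFox2-1 and 10.4 (9.01 to 11.8) with shFox2-2. The controls nearly coincided, and the Rbfox2 hairpins lay on either side of them with no overlap. Relative to the control mean, *Tet1* was 50.3% higher with shFox2-1 and at 0.670 of it with shFox2-2. Averaged over the hairpins its log2 fold change was 0.01 (SE 0.35, limma adjusted p = 0.998).

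*Tet2* (chr3:133126803-133207332, minus strand) was at 5.05 FPKM (4.44 to 5.66) with shLuc, 5.21 (4.51 to 5.90) with shGFP, 11.5 (10.2 to 12.8) with shFox2-1 and 3.45 (2.83 to 4.07) with shFox2-2. It was 2.25 times the control mean with shFox2-1 and 0.672 of it with shFox2-2, and its range over the hairpins, 1.495 on the log2 scale, was the widest of the 8 genes. The shFox2-1 value was 3.35 times the shFox2-2 value, against 1.03 between the controls. Its log2 fold change over the arms was 0.28 (SE 0.47, limma adjusted p = 0.994).

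*Tet3* (chr6:83312367-83409078, minus strand) was far lower, above 7.59% of expressed genes. It was at 1.59 FPKM (1.31 to 1.87) with shLuc, 1.78 (1.44 to 2.11) with shGFP, 1.103 (0.867 to 1.34) with shFox2-1 and 1.56 (1.21 to 1.90) with shFox2-2. The shFox2-1 value was the lowest, where those of *Tet1* and *Tet2* were the highest. Its interval overlapped that of shLuc but not that of shGFP, and after centring on the median gene it lay below both controls. The log2 fold change was -0.21 (SE 0.17, limma adjusted p = 0.978).

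An interval above both controls with shFox2-1 was found for 5.44% of expressed genes, and below both with shFox2-2 for 1.98%. The combination seen in *Tet1* and *Tet2* was found for 58 genes, or 0.459%. With hairpins centred it was found for 14 genes, or 0.111%, and both TET genes were among them. The reverse combination was found for 1 gene as deposited. An interval above both controls with shFox2-2 was found for 0.348% of expressed genes and for none of the 8. After centring it was found for 1.74%, *Dnmt3l* included. The median expressed gene lay 0.07 above the control mean with shFox2-1 and 0.10 below it with shFox2-2 on the log2 scale. All Rbfox2 hairpin values share the same controls.

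**Figure D2:**
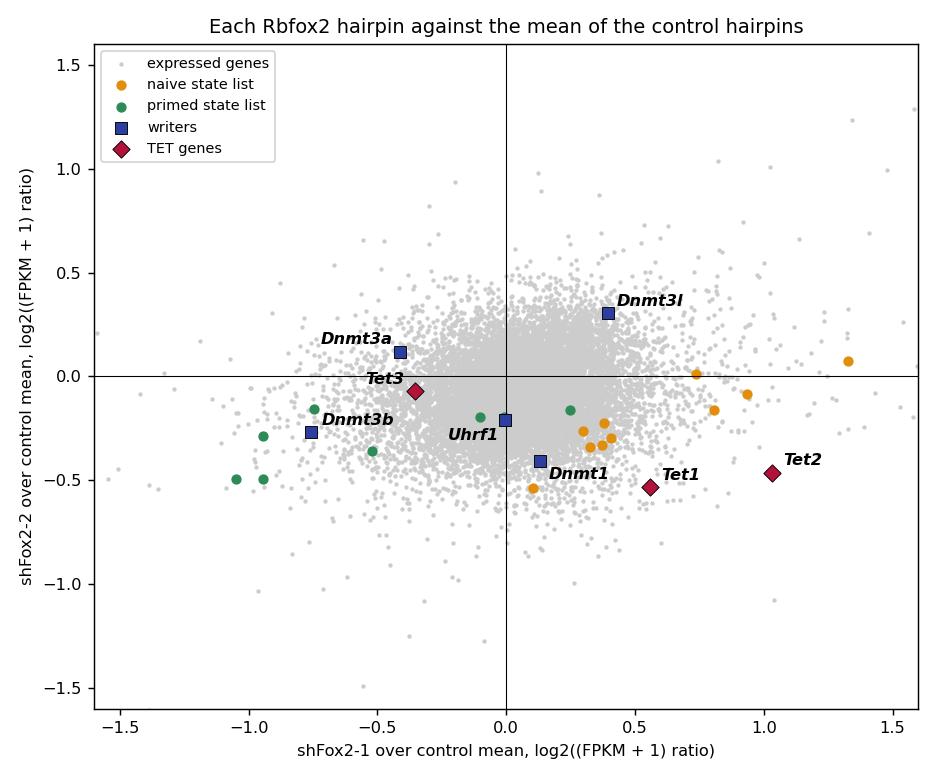
Difference of each Rbfox2 hairpin from the mean of the controls, as log2 of the (FPKM + 1) ratio, shFox2-1 on the horizontal and shFox2-2 on the vertical axis, with 1 point per expressed gene. Squares are writers, diamonds TET genes, orange and green points 2 gene lists described below, and 9 of 12632 genes lie beyond the plotted range. *Tet1* (0.56 and -0.53) and *Tet2* (1.03 and -0.46) lie at the lower right, and *Dnmt3b* (-0.76 and -0.27) at the lower left.

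Summed over the family, TET expression was 21.9 FPKM with shLuc, 22.8 with shGFP, 36.0 with shFox2-1 and 15.4 with shFox2-2. *Tet2* made up 23.0% and 22.8% of it in the controls, 32.0% with shFox2-1 and 22.3% with shFox2-2. *Dnmt3a* and *Dnmt3b* together were at 125 FPKM with shLuc, 139.6 with shGFP, 82.5 with shFox2-1 and 118 with shFox2-2. The ratio of de novo to TET expression was therefore 5.71 and 6.12 in the controls, 2.29 with shFox2-1 and 7.63 with shFox2-2. *Tet1* and *Tet2* made up most of the TET sum with every hairpin. That the ratios lay on opposite sides of the controls is thus no result apart from those genes. The de novo sum itself was below both controls with both Rbfox2 hairpins. Each ratio is of pooled values with no replicate error.

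Markers of other cell types were set beside this difference. The trophoblast list summed to 34.3 FPKM with shLuc, 37.4 with shGFP, 63.7 with shFox2-1 and 37.8 with shFox2-2, with 2 of 5 markers expressed (*Krt8* and *Krt18*, keratins of simple epithelia). The defining trophoblast factors were low in every hairpin, *Cdx2* at 0.239 to 0.571, *Elf5* at 0 to 0.154 and *Eomes* at 0.629 to 1.02 FPKM. In the neural list, whose sum varied less, *Nes* was at 8.49 and 9.69 FPKM in the controls, 3.87 with shFox2-1 and 7.92 with shFox2-2. *Sox1* was at 3.38 and 3.27, 1.48 and 2.22, and *Tubb3* at 27.3 and 32.1, 38.3 and 24.7, in that order. *Pax6* was at 5.20 and 4.55, 4.49 and 5.12, and *Neurod1* at 3.16 and 2.79, 3.51 and 2.90, in the same order. The part of these marker values in the TET difference was not tested. In bulk RNA, a change in the share of cells with a transcript and a change in its level per cell cannot be told apart.

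The genes most like *Tet2* over the 4 hairpins were looked for among 7993 genes with a mean of at least 5 FPKM, by Euclidean distance between log2(FPKM + 1) profiles with each profile's own mean subtracted. The nearest were *Jam2* (distance 0.177), a junction adhesion gene, *Rex2* in 2 entries (0.214 and 0.251) and *Fam25c* (0.234). *Jam2* was at 5.72 FPKM with shLuc, 5.39 with shGFP, 11.1 with shFox2-1 and 3.998 with shFox2-2. *Tet1* was 33rd in this order at a distance of 0.394. The other 6 genes were further off, *Dnmt1* at place 1245, *Uhrf1* at 3938, *Dnmt3l* at 4449, *Dnmt3a* at 7846 and *Dnmt3b* at 7914. *Tet3*, below the cut of 5 FPKM, was not among the 7993 and would have come at 7585. Such a likeness over 4 values that share controls is a description.

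iCLIP clusters were present in 6 of the 8 loci. Of the 35639 clusters, 38 overlapped the loci, of which 36 carried the gene's own identifier and lay on its strand. The other 2 belonged to *Aire* on the opposite strand of the *Dnmt3l* locus. The TET loci held 19 and the writer loci 17 of the 36. Over 11729 expressed loci that could be matched to the clusters, 53.9% had at least 1. Coverage and fold over the untagged library are the authors' values and describe clusters within this list. The median coverage was 410 in the 36 clusters and 374 in the list. Clusters with no signal in the untagged library made up 38.9% of the 36 and 44.9% of the list. The exon or intron a cluster lies in was not analysed here, and neither was its sequence.

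*Tet2* held the strongest cluster. It spans chr3:133141770-133142454 (685 bases, mm9), with a coverage of 28392, 12.69-fold over the untagged library, and ranks 180th of all 35639 clusters. It lies 15.3 kb from the locus's 3′ end and carries 80.3% of the summed coverage of the 11 *Tet2* clusters, 4 others of which lie within 5 kb of it. The next by coverage were chr3:133198571-133198844 (1736, 15.5-fold) near the 5′ end and chr3:133169997-133170181 (1245, 3.71-fold). A count of 11 or more clusters was reached by 5.08% of the expressed loci, and by 9.67% of those 40 to 100 kb long, such as *Tet2*.

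*Tet1* held 7 clusters in its locus. The strongest were chr10:62339150-62339313 (coverage 2498, 7.43-fold), chr10:62305037-62305204 (1361, 12.15-fold) and chr10:62281414-62281500 (605, with none in the untagged library). A further 4 clusters with the *Tet1* identifier lay 3.42 to 6.84 kb past the 3′ end of the table's locus with a coverage of 2224 to 8960 and a fold of 1.20 to 2.74 over the untagged library. Of these, 3 had more coverage than any cluster inside the locus. *Tet3* held 1, chr6:83322518-83322627 (coverage 283, none in the untagged library).

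*Dnmt1* also held 11, of which the strongest, chr9:20711686-20711913 (coverage 1790, 2.38-fold), lay 0.12 kb from the 3′ end. The others named were chr9:20735987-20736122 (907, 8.10-fold) and chr9:20736291-20736453 (842, 4.39-fold), near the middle of the locus. *Uhrf1* held 3 weak ones, chr17:56462390-56462483 (317, 1.58-fold), chr17:56456077-56456133 (175) and chr17:56455028-56455083 (172), of which the last pair had none in the untagged library. *Dnmt3l* held 3, chr10:77523424-77523638 (1205, 10.76-fold), chr10:77524925-77524996 (328, 2.93-fold) and chr10:77519371-77519421 (150, 1.34-fold).

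No cluster was listed in *Dnmt3a* or *Dnmt3b*, although both were well expressed and *Dnmt3b* was the second highest of the 8. Of 2316 expressed loci of 40 to 100 kb, a band that holds *Dnmt3a* at 79.4 kb and just misses *Dnmt3b* at 39.0 kb, 22.7% had no cluster, and the median was 3. *Tet2*, at 5.05 and 5.21 FPKM in the controls, carried the cluster of highest coverage. The tagged protein was induced in cells other than those of the knockdown.

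**Figure D3:**
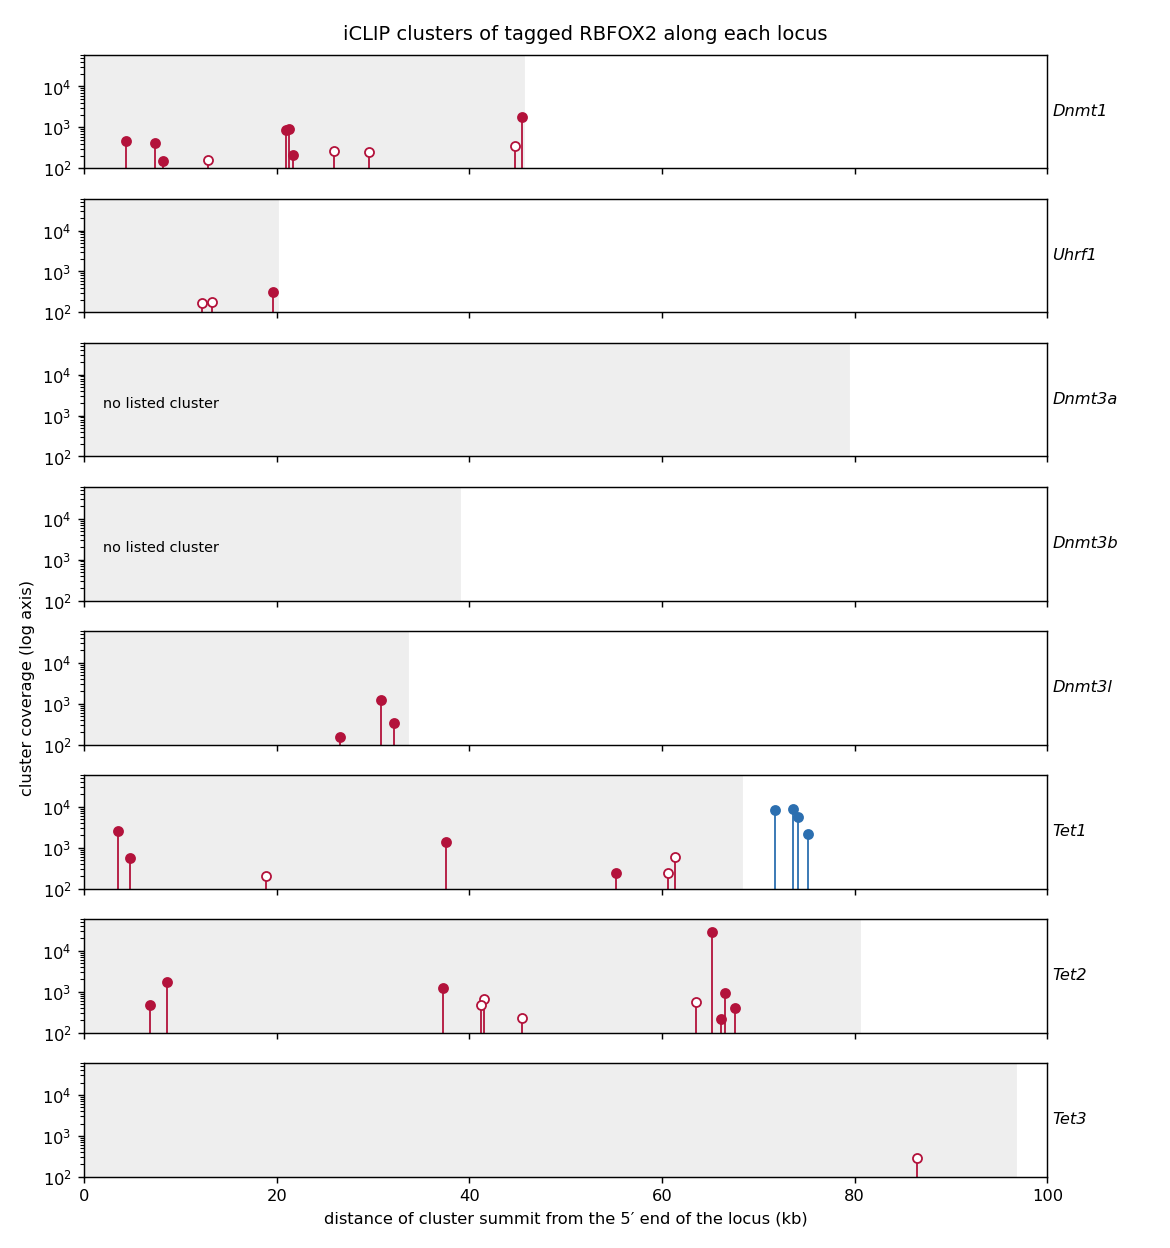
iCLIP clusters of tagged RBFOX2 along the 8 loci, with the distance of the cluster summit from the locus's 5′ end in kb (horizontal) and coverage (vertical, log axis). Grey spans the locus, red marks clusters inside it, open circles those with no signal in the untagged library, and blue the 4 *Tet1* clusters past the 3′ end. The tallest mark is the *Tet2* cluster with a coverage of 28392 at 65.2 kb, and *Dnmt3a* and *Dnmt3b* have none.

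The other genes of the pathway were read from 8 lists. limma called 0 genes in every list. Over all expressed genes the median log2 fold change was -0.01, and the median difference was 0.07 with shFox2-1 and -0.10 with shFox2-2. Among methyl-CpG and hemimethylated DNA readers (8 of 9 expressed), 0 were separated and the median log2 fold change was 0.01. *Mbd3*, a subunit of the NuRD repressor complex, was at 33.2 and 37.6 FPKM in the controls, 32.9 with shFox2-1 and 26.8 with shFox2-2, and *Uhrf2*, the paralogue of *Uhrf1*, at 14.7 to 16.6. Base excision and active demethylation genes (13 of 15 expressed), which repair oxidised cytosines, had 0 separated and 0 outside both controls with either Rbfox2 hairpin. *Parp1*, a sensor of DNA breaks, ranged from 80.0 to 99.6 FPKM, and *Apex1*, the abasic-site endonuclease, from 52.3 to 62.2.

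Recruiters and regulators of DNA methyltransferases (25 of 25 expressed) had 0 separated. With shFox2-1, 5 of 25 lay above both controls, against 5.44% of expressed genes, and with shFox2-2, 3 of 25 lay below, against 1.98%. *Trim28*, the corepressor that zinc-finger proteins recruit, was at 239 and 287 FPKM in the controls, 292 with shFox2-1 and 236 with shFox2-2, and *Pcna*, the replication clamp, at 87.2 to 100.8. *Hells* and *Atrx*, named after their values were seen, had the pattern of *Tet1*, as did 0.459% of expressed genes. After centring their differences were 0.22 and -0.55 for *Hells* and 0.37 and -0.53 for *Atrx*. Whether their centred intervals still cleared the controls is not reported here. *Hells*, a remodeller needed for methylation of repeats, was at 59.99 and 60.6 FPKM in the controls, 74.5 with shFox2-1 and 38.1 with shFox2-2. *Atrx*, a remodeller of heterochromatin, was at 37.6 and 34.6 in the controls, 49.6 with shFox2-1 and 23.0 with shFox2-2.

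TET partners and cofactor supply (10 of 11 found, 9 expressed) had the only separated list member, *Sall4*, a pluripotency factor that binds oxidised methylcytosine. It was at 71.0 FPKM with shLuc, 72.3 with shGFP, 91.4 with shFox2-1 and 87.7 with shFox2-2, a log2 fold change of 0.32 (SE 0.10, limma adjusted p = 0.978). With shFox2-1, 4 of the 9 lay above both controls and 1, *Idh1*, below, against 5.44% and 2.11% of expressed genes. The methyl donor and folate cycle (20 of 20 expressed), which supplies S-adenosylmethionine, had 0 separated and a median log2 fold change of -0.04. *Mat2a*, which makes S-adenosylmethionine, was at 116 and 113 FPKM in the controls, 158 with shFox2-1 and 133 with shFox2-2, and *Ahcy*, which clears the product of methylation, at 105 to 122.

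The list of germline genes held silent by promoter methylation had 9 of 18 expressed here, so its name does not describe every member. None was separated. The 9 had a median difference of 0.52 with shFox2-1 and 0.01 with shFox2-2. *Hormad1* was among the 9 only through shFox2-1, at 0.956 and 0.656 FPKM in the controls, 1.86 with shFox2-1 and 0.618 with shFox2-2. The median of 0.52 thus depends on the expression filter. Without *Hormad1* it would fall midway between *Mael* (0.065) and *Stk31* (0.52). Expressed genes had the median values of 0.07 and -0.10 given above. With shFox2-1, 2 of the 9 lay above both controls, against 5.44% of expressed genes. *Tdrkh* (-0.30), *Sycp3* (-0.20) and *Tdrd1* (-0.06) were lower than the control mean with shFox2-1. On the log2(FPKM + 1) scale, *Ddx4* and *Tex19.1*, the 2 of highest FPKM, had the largest rises of the list with shFox2-1. This scale understates the rises of low genes. *Ddx4*, a germ cell helicase, was at 7.61 and 8.94 FPKM in the controls, 15.3 with shFox2-1 and 7.58 with shFox2-2. *Tex19.1* was at 7.18 and 12.5 in the controls, 16.6 with shFox2-1 and 10.46 with shFox2-2. The control hairpins themselves stood apart for *Tex19.1*.

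Genes of the naive pluripotent state (10 of 10 expressed) had 0 separated, with a median difference of 0.39 with shFox2-1 and -0.25 with shFox2-2. With shFox2-1, 5 of 10 lay above both controls, against 5.44% of expressed genes, and with shFox2-2, 1 of 10 lay below, against 1.98%. *Zfp42*, a marker of this state, was at 109.6 and 116 FPKM in the controls, 189 with shFox2-1 and 114 with shFox2-2, and *Klf2* at 55.3, 60.4, 62.2 and 39.6 in that order. Primed-state genes (8 of 10 expressed) had 0 separated, and medians of -0.63 with shFox2-1 and -0.24 with shFox2-2. With shFox2-1, 3 of 8 lay below both controls, against 2.11% of expressed genes. *Zic2* was at 14.9 and 13.5 in the controls, 6.35 with shFox2-1 and 9.80 with shFox2-2, and *Lefty1*, a NODAL inhibitor, at 16.9 to 20.7. The 8 methylation genes had medians of 0.06 and -0.24.

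**Figure D4:**
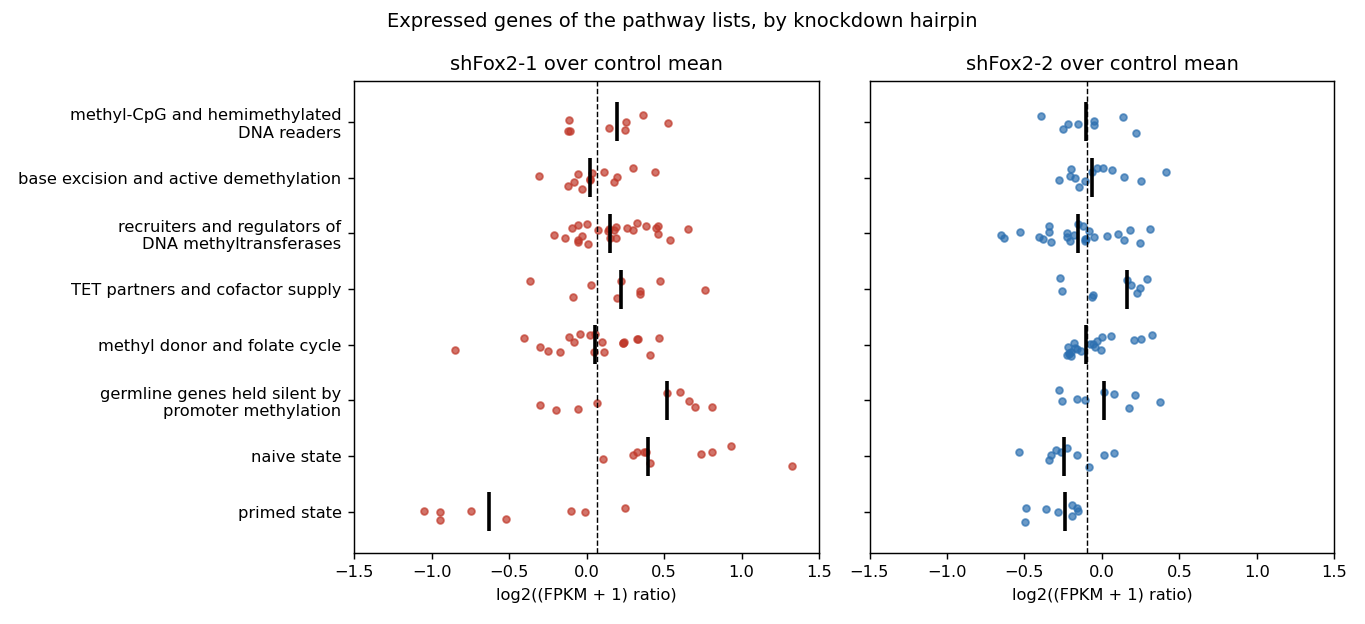
Differences of the expressed genes of the 8 pathway lists from the control mean, as log2 of the (FPKM + 1) ratio, with shFox2-1 on the left and shFox2-2 on the right. Points are genes, short bars the list medians and dashed lines the medians of all expressed genes (0.07 and -0.10). With shFox2-1 the primed list has a median of -0.63 and the germline list one of 0.52, and with shFox2-2 the list medians lie between -0.25 and 0.16. The germline median includes *Hormad1*, which met the cut of 1 FPKM only through its shFox2-1 value. Without *Hormad1* the shFox2-1 median of that list would be lower.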

How the data were processed

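Poly(A) RNA of 8 libraries was deposited as 1 FPKM value per gene and hairpin with an interval and a status, in the layout of a Cuffdiff table per the file headers, so the 2 libraries of a hairpin were pooled by the authors. TopHat2 2.0, Cufflinks 2.1.1 and build mm9 come from the submitters' processing notes. The annotation and scaling are not given in the sources used here. iCLIP clusters were deposited by the authors with a score field that joins coverage, fold over the untagged library and q-value. The untagged library had 7 PCR cycles beyond the 16 of each library, per the labels' protocols. Their caller is not given in the sources used here.

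Of 26857 entries, 105 failed and 6477 at 0 in every hairpin were left out (a few met both criteria). limma 3.58.1 (R 4.3.3, mean-variance trend) compared 2 knockdown with 2 control hairpins on log2(FPKM + 1) over 20281 genes. Fold changes on this scale understate those of low genes. Tested on simulated data for these genes, it called 38.0% of genes changed by 1 on the log2 scale and 100 of 100 changed by 2. The simulated noise was independent between genes, and genes of similar level were given the same spread, unlike real genes. In it 100 genes were changed at each size. For these reasons power in the real data may be lower. In the real data *Rbfox2* itself, with a log2 fold change of -1.50, was not called. Tables were made in Python 3.11.15 with pandas 2.3.3. Depth is unknown, so the precision is that of the deposited intervals.

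The members and lists were chosen with earlier results of these data known. From each list, separated genes were named, or the 2 of highest FPKM where there were none. For *Tet2*, the gene of widest range, the 5 nearest entries were taken, of which 1 is not reported here, and in each locus the 3 clusters of highest coverage. Alternatives were the pseudocount (0.1), a filter on low values, centring, no trend, leaving out each hairpin, and cluster cut-offs.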

Additional observations from a re-analysis of the deposited data

Results flagged for a closer look

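*Tet1* and *Tet2* each had every Rbfox2 hairpin on an opposite side of the controls. On the log2 scale of FPKM + 1, *Tet1* was at 0.56 over the control mean with shFox2-1 and at -0.53 with shFox2-2. *Tet2* was at 1.03 with shFox2-1 and at -0.46 with shFox2-2. The difference between the hairpins was not tested, since each gave 1 pooled value. Both hairpins lowered *Rbfox2*, to 8.56 and 7.21 FPKM. The values kept their sides after centring on the median gene.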

How the results depend on the processing

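In 64 recomputed fold changes of the 8 genes, 59 kept their direction and none passed the threshold, with limma adjusted p-values of 0.344 to 0.9998. The other 5 reversed when a hairpin was left out, where the lone hairpin of an arm was assumed to vary like the other arm. Without each hairpin in turn the log2 fold change ranged from -0.40 to 0.13 for *Dnmt1*, from -0.41 to 0.12 for *Dnmt3a*, from -0.54 to 0.56 for *Tet1* and from -0.46 to 1.03 for *Tet2*. *Dnmt1* was at 0.13 without shFox2-2, *Dnmt3a* at 0.12 without shFox2-1, *Tet1* at -0.01 without shLuc and -0.54 without shFox2-1, and *Tet2* at -0.46 without shFox2-1.

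Over all genes limma called 0, or 1 (*Rbfox2*) with a mean of at least 1 FPKM. Separated members numbered 0 in the main comparison, 3 by the order of values alone, and 1 to 4 without a hairpin: 1 without shLuc, 1 without shGFP, 3 without shFox2-1 and 4 without shFox2-2. Over expressed genes these shares were 0.839%, 0.934%, 2.33% and 7.55%. The 38 clusters became 24 at a fold of at least 4 and 20 at the list's median coverage or above. After centring, an alternative chosen after seeing the data, members outside both control intervals numbered 5 in place of 4 with shFox2-1 (*Tet3* added) and 3 as before with shFox2-2, with *Dnmt3l* in place of *Dnmt1*. The centred shares of expressed genes were 3.32% above and 3.13% below with shFox2-1, and 1.74% and 0.926% with shFox2-2. No paired analysis was possible because the deposited columns pool the libraries of a hairpin. With 1 pooled value per hairpin, spread between cultures could not be read.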
